A study of Mus musculus with 20 samples.

Results

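Cs, Idh3a, Idh3b, Idh3g, Ogdh, Suclg1, Suclg2, Mdh2 and Fh1 encode 9 enzyme subunits of the tricarboxylic acid (TCA) cycle. They were taken from the gene count table of an adipocyte translatome by their Ensembl identifiers. The table holds 46078 genes, and all 9 of the 9 enzymes passed the filter on low counts, as did 21464 genes in total. Ribosome-bound RNA had been pulled down (TRAP–seq) from epididymal adipose tissue (epiAT) of AdipoERCre x NuTRAP mice, in which tamoxifen-induced Cre under the adiponectin promoter makes adipocytes carry a ribosomal protein tagged with GFP. The genotype was the same in all 20 mice, on a C576BL6 background as the labels spell it. The short arm of the study held 4 groups of 3 mice. C mice were fed chow and were 18 weeks old. H mice were of the same age and had been on a high-fat diet (HFD) for 12 weeks. CC_s mice were fed chow and were 26 weeks old, and HC mice of that age had been returned to chow for 8 weeks after 12 weeks of HFD. The long arm held 4 groups of 2 mice. CC_l (chow) and HH (25 weeks of HFD) were 31 weeks old. CCC (chow) and HHC (25 weeks of HFD, then 8 weeks of chow) were 39 weeks old. Each HFD or weight-loss group was set against the chow group of its own age.

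The TCA cycle runs in the mitochondrial matrix. It oxidizes the acetyl units that come from fatty acids, glucose and amino acids, and hands the electrons to the respiratory chain. In white adipocytes the cycle also supplies citrate, which leaves the mitochondrion and is cleaved in the cytosol to give acetyl-CoA for fatty acid synthesis. Citrate synthase (Cs) opens the cycle by joining acetyl-CoA to oxaloacetate. The NAD-dependent isocitrate dehydrogenase, built of a catalytic subunit (Idh3a) and the subunits Idh3b and Idh3g, and the alpha-ketoglutarate dehydrogenase complex, to which Ogdh belongs, then release carbon dioxide. Succinyl-CoA ligase pairs a shared alpha subunit (Suclg1) with a beta subunit that sets the nucleotide made, the GDP-forming one being Suclg2. Fumarase (Fh1) and mitochondrial malate dehydrogenase (Mdh2) close the circle.

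None of the 9 enzymes passed the study's threshold (edgeR quasi-likelihood test, nominal p under 0.01 with a log2 fold change of at least 1 in either direction) in any of the 4 comparisons, nor did any in DESeq2. At an unadjusted p under 0.05 there was 1, Suclg2 in H, in either tool, where edgeR gave such a p to 17.1% of all tested genes in H, 8.69% in HC, 17.4% in HH and 10.7% in HHC. Under HFD the estimates leaned down. All 9 were below zero after 12 weeks, with a median log2 fold change of -0.47, and 8 were below zero after 25 weeks, with a median of -0.76. After weight loss they were split. In HC 6 lay below and 3 above zero (median -0.27), and in HHC 7 lay above and 2 below (median 0.33). These signs are those of the edgeR estimates, and some depend on the scale. By mean log2 CPM, Idh3b was at 6.44 in H against 6.41 in C (estimate -0.11). Mdh2 was at 8.77 in HC against 9.05 in CC_s (0.12), and Idh3b at 6.79 in HHC against 6.92 in CCC (0.21). The spread between mice of the same group was wide, and the H result in particular turned on which chow libraries were used.

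Total counts ran from 10710277 to 36738954 per library, and the enzymes had between 354 and 29847 counts, so counting noise was small beside the spread between mice. The 8 adipocyte markers, adiponectin among them, summed to 21000 to 132000 CPM (counts scaled to a common library size). Fabp4 alone ran from 5650 to 104000 CPM and adiponectin from 493 to 8800, so the highest sums rest mainly on Fabp4. 4 libraries stood apart: C replicates 1 and 2, HC replicate 3 and CCC replicate 2. Their 4 nuclear-retained RNAs (Malat1, Neat1, Kcnq1ot1 and Meg3) summed to 20395 to 37596 CPM, against 2787 to 12402 CPM in the others, and their adipocyte markers were the lowest of all, at 20988 to 27894 CPM. CC_l replicate 1 held 3330 CPM of 6 spermatid markers. Macrophage markers came with the pulldown: 6 of 8 were called higher in H, 6 in HC, 8 in HH and 0 in HHC. In such bulk samples fewer adipocytes and less RNA per adipocyte cannot be told apart.

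Per kilobase of exon, Mdh2 was the most abundant of the 9, at a mean of 6.97 log2 CPM per kb over all mice. Idh3g (5.72), Cs (5.62), Ogdh (5.54), Idh3a (5.29) and Fh1 (5.23) followed within a narrow band on that scale, then Idh3b at 4.96. The 2 succinyl-CoA ligase subunits in the set were at the bottom, Suclg1 at 4.25 and Suclg2 at 3.05. The ATP-forming beta subunit Sucla2 is outside the set. Its mean was 7.85 log2 CPM without scaling by length, beside 6.46 for Suclg1 and 5.27 for Suclg2. Across the 8 groups, CC_l had the highest mean for 5 enzymes and H the lowest for 5. Of the 63 gaps between neighbouring group means, 1 exceeded the enzyme's pooled standard deviation within groups, that of Idh3b between CC_l and the next group (0.81 against 0.80 on the log2 scale). All other neighbours differed by less than that spread. Suclg2 had the largest share of its variance between groups, 53.5%. The share was 20.5% to 37.8% for the other 8 enzymes. With 8 groups of 2 or 3 mice, group means take up part of the variance even where groups do not differ. The shares were not tested and do not by themselves show a group effect.

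**Figure D1:**
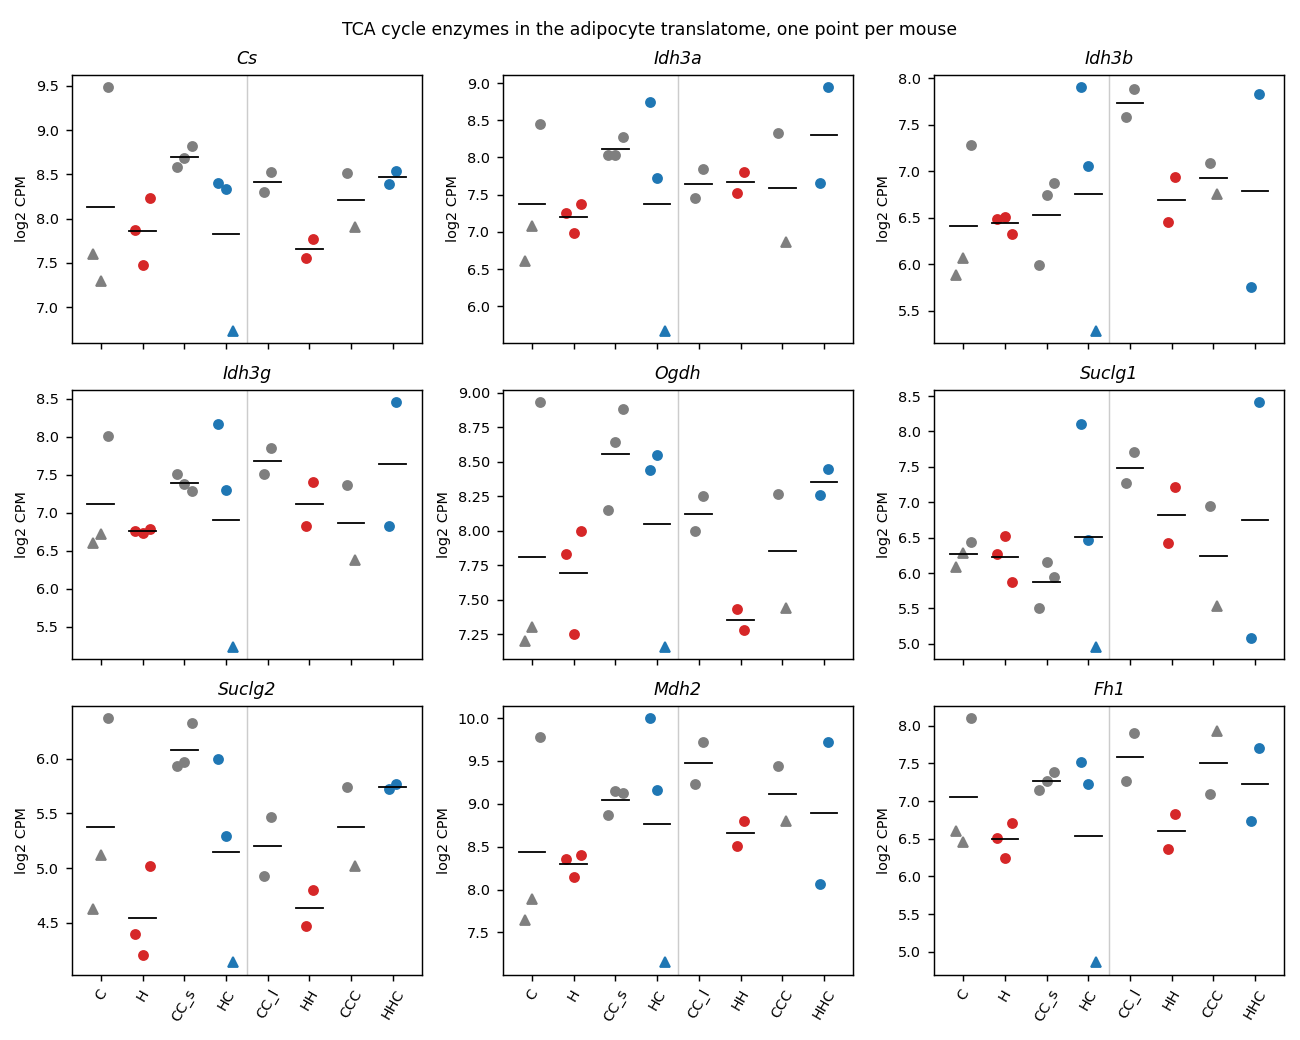
Level of each enzyme in log2 CPM (y axis, scaled per gene) in the 8 groups (x axis), 1 point per mouse, with chow in grey, HFD in red, weight loss in blue and the group mean as a black line; the grey vertical line separates the short and the long arm. Triangles mark the 4 libraries with over 20000 CPM of nuclear-retained RNA, and HC replicate 3 is the lowest point of all 20 for 9 of 9 enzymes.

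Cs lies on chromosome 10 (128337734 to 128362479, plus strand, mm10), and Suclg1 (73248382 to 73276911, plus strand) and Suclg2 (95473009 to 95718800, minus strand) share chromosome 6. Idh3a is on chromosome 9 and Idh3b on chromosome 2, Idh3g on the X, Ogdh on chromosome 11, Mdh2 on chromosome 5 and Fh1 on chromosome 1. The 250 bases before the RefSeq start (GRCm38.p6) are shown for 3 of them, chosen after their values were seen: Cs and Suclg2 as a pair of enzymes that varied together across mice, and Suclg1 as the one that varied apart from both. Each is written 5′ to 3′ on the gene's strand, and capitals mark the GC box (GGGCGGG) and the CCAAT box on either strand.
Cs, chr10:128337477-128337726, plus strand: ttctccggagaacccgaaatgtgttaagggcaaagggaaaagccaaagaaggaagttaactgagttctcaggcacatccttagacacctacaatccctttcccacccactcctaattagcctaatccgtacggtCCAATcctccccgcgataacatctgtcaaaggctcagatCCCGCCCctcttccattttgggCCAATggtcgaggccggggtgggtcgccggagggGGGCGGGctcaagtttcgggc
Suclg2, chr6:95718847-95719096, minus strand: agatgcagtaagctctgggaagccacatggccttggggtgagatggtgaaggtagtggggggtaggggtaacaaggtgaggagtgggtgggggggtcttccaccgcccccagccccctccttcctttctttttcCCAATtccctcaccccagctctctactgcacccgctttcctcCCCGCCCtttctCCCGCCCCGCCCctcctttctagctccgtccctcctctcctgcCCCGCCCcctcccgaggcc
Suclg1, chr6:73248255-73248504, plus strand: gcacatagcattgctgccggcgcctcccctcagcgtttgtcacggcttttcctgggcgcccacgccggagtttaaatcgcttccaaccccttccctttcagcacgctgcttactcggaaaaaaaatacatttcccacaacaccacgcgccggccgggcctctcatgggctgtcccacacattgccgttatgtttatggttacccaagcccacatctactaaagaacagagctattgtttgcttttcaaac
The Cs window held 2 GC boxes and 2 CCAAT boxes, and that of Suclg2 held 4 GC boxes, a pair of them overlapping, and 1 CCAAT box. Suclg1 held neither, but the GENCODE start of Suclg1 lies within this window, upstream of the RefSeq start, so part of the window is inside the annotated gene and it does not match the other two. Over all 32851 promoter windows of this length in the table, 23.4% held a GC box and 33.8% a CCAAT box. The ETS motif CCGGAAG (6.91% of windows) occurred in Idh3g. The estrogen-related receptor motif AAGGTCA (4.08%) and the palindromic NRF1 motif (0.782%) were in none of the 13 windows listed for 8 of the 9 enzymes, Ogdh having several. A match is a run of letters in this window and no measure of binding, and the absence of a match says nothing about the factor.

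The first comparison asked how 12 weeks of HFD changed the adipocyte translatome. Cs stood at 7.60, 7.29 and 9.49 log2 CPM in the C mice and at 7.87, 7.47 and 8.23 in the H mice. All 3 H mice lay within the range of the chow mice, of which 1 was far above the others. The fold change was -0.59 on the log2 scale (SE 0.53, adjusted p = 0.599 by edgeR). Suclg2 had the lowest p of the 9. It was at 4.63, 5.12 and 6.37 log2 CPM in C and at 4.40, 4.21 and 5.02 in H, a fold change of -0.99 (SE 0.46, 95% interval -1.96 to -0.02, adjusted p = 0.285 by edgeR). Its groups overlapped, as H replicate 3 lay between the chow mice. Suclg1, its partner, was at 6.09, 6.28 and 6.44 in C and 6.27, 6.52 and 5.88 in H, a difference of -0.03 (SE 0.69). Fh1 (-0.75, SE 0.55), Idh3g (-0.50, SE 0.58), Mdh2 (-0.47, SE 0.64) and Idh3a (-0.39, SE 0.62) had estimates between those of Suclg2 and Ogdh. Those of Ogdh (-0.32, SE 0.48) and Idh3b (-0.11, SE 0.57) were closer to zero.

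With 6.49% of all tested genes called in this comparison, 0 of the 9 enzymes were. The enzymes' median of -0.47 compares with -0.15 over all tested genes, and all 9 overlapped between C and H, where 25.1% of all genes did not. In C the 2 low mice were those with high nuclear-retained RNA, and the high one had 131733 CPM of adipocyte markers against 37463 to 59783 in H. Macrophage markers summed to 176 to 289 CPM in C and 585 to 3790 CPM in H, and endothelial markers to 247 to 616 CPM in C and 1120 to 1560 CPM in H, with 2 of 5 called higher. Their part in the result was not tested. Without C replicate 3, 7 enzymes turned positive and the median became 0.35, while Suclg2 was at -0.32 and Fh1 at -0.03. Without the 4 libraries that stood apart, C replicate 3 is the only C mouse. Its spread is then assumed to be that of the other groups, so effect sizes alone are given. All 9 enzymes were below zero, with a median of -1.14, Suclg2 at -1.68, Cs at -1.49, Fh1 at -1.48 and Ogdh at -1.09. With nuclear-retained RNA as a covariate the median was -1.33 and 4 enzymes were called lower, Idh3a, Idh3g, Suclg2 and Mdh2. Over all 21464 tested genes, 1696 were then called higher and 1017 lower. Suclg2 was below zero under both of these settings, which were chosen after seeing the data, and at -0.32 without C replicate 3.

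The second comparison asked what remained after a short obesity, when HC mice had lost weight on chow. Cs was lower in every HC mouse than in every chow mouse, at 8.40, 8.34 and 6.73 log2 CPM in HC and 8.58, 8.69 and 8.82 in CC_s. It was the only 1 of the 9 whose groups did not overlap, against 5.82% of all genes in that direction, and its fold change of -0.70 (SE 0.53, adjusted p = 0.718 by edgeR) did not pass. The succinyl-CoA ligase subunits Suclg1 and Suclg2 had estimates of opposite sign. Suclg1 was at 8.10, 6.47 and 4.96 in HC and at 5.50, 6.16 and 5.94 in CC_s, an estimate of 1.15 (SE 0.70, adjusted p = 0.630 by edgeR). Its HC mice thus spanned more than 3 log2 units and enclosed the chow mice. Suclg2 was at 6.0, 5.29 and 4.14 in HC and at 5.93, 5.97 and 6.33 in CC_s, an estimate of -0.76 (SE 0.46, adjusted p = 0.626 by edgeR).

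Idh3b (0.52, SE 0.57) and Mdh2 (0.12, SE 0.64) were the other two above zero. Idh3a (-0.27), Idh3g (-0.07), Ogdh (-0.41) and Fh1 (-0.35) were below it. Macrophage markers summed to 162 to 182 CPM in CC_s and 511 to 1550 CPM in HC. None of the 9 enzymes passed, in a comparison where 1.74% of all genes were called and the median over all genes was 0.27. All 9 enzymes were at their lowest of the 20 mice in HC replicate 3, in which Mdh2 was at 7.15 log2 CPM beside 10.00 and 9.16 in its group mates, and Fh1 at 4.86 beside 7.52 and 7.23. That library also had the lowest adipocyte marker sum (20988 CPM), 1550 CPM of macrophage markers and 508 CPM of spermatid markers. Without it the median was 0.20, with Idh3a (0.20), Idh3g (0.40) and Fh1 (0.11) above zero. Without HC replicate 1, the highest HC mouse for most of the enzymes, the median was -0.79, 8 of 9 were below zero and Suclg1 went from 1.15 to 0.02.

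The third comparison set 25 weeks of HFD against chow. Idh3b was at 6.45 and 6.94 log2 CPM in the HH mice and at 7.58 and 7.89 in CC_l, an estimate of -1.02 (SE 0.71, adjusted p = 0.460 by edgeR). Fh1 was at 6.37 and 6.83 against 7.26 and 7.90 (-0.99, SE 0.68, adjusted p = 0.456), and Mdh2 at 8.51 and 8.80 against 9.23 and 9.72 (-0.83, SE 0.79). Both HH mice were below both chow mice in each of these. The same held for Cs, at 7.55 and 7.77 against 8.30 and 8.53 (-0.76, SE 0.64), and for Ogdh, at 7.43 and 7.28 against 8.00 and 8.25 (-0.77, SE 0.59). Suclg1 (-0.64, SE 0.85), Suclg2 (-0.58, SE 0.56) and Idh3g (-0.55, SE 0.71) were separated as well. Idh3a was the exception, at 7.52 and 7.81 in HH and 7.45 and 7.85 in CC_l (0.01, SE 0.75).

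In all, 8 of the 9 enzymes were lower in both HH mice than in both CC_l mice, while 28.9% of all tested genes were, and 0 of 9 were called where 6.79% of all genes were. The median of -0.76 compares with -0.23 over all genes. Adipocyte markers were 33252 and 37431 CPM in HH against 51890 and 52999 in CC_l, and macrophage markers 3880 and 4650 CPM against 183 and 414. The part of either in the result was not tested. Other cell types moved as well. Progenitor or fibroblast markers summed to 2950 and 4620 CPM in HH against 372 and 603 in CC_l (3 of 5 called higher), and endothelial markers to 1290 and 674 against 134 and 168 (4 of 5 called higher). The median was -0.86 without CC_l replicate 1, the library with spermatid RNA, and 9 of 9 were then below zero. It was -0.54 without CC_l replicate 2, -0.63 without HH replicate 1 and -0.85 without HH replicate 2. Without CC_l replicate 2, Suclg2 was at -0.25 and Fh1 at -0.61. With nuclear-retained RNA as a covariate Idh3b was called lower (-1.48, adjusted p = 0.0518 by edgeR). Over all 21464 tested genes, 1854 were then called higher and 1361 lower.

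The fourth comparison asked what remained 8 weeks after long obesity. Suclg1 and Idh3g had the largest estimates. Suclg1 was at 5.08 and 8.41 log2 CPM in the HHC mice and at 6.94 and 5.54 in CCC (1.14, SE 0.86, adjusted p = 0.661 by edgeR), and Idh3g at 6.82 and 8.45 against 7.36 and 6.38 (0.91, SE 0.71, adjusted p = 0.679). For Suclg1 the HHC mice lay on either side of the chow mice, and for Idh3g HHC replicate 1 lay between them. Idh3a was at 7.66 and 8.95 against 8.33 and 6.86 (0.67, SE 0.76). Suclg2 was tight in HHC, at 5.72 and 5.77, against 5.74 and 5.02 in CCC (0.33, SE 0.56), and so was Cs, at 8.39 and 8.54 against 8.52 and 7.91 (0.22, SE 0.64). Ogdh (0.44, SE 0.59) and Idh3b (0.21, SE 0.70) were above zero and Mdh2 (-0.04, SE 0.78) and Fh1 (-0.28, SE 0.67) below. None of the 9 was separated between the groups, where 28.8% of all genes were, and 0 were called, where 3.12% of all genes were. The median of 0.33 was carried by HHC replicate 2. Without it the median was -0.14, with Suclg1 at -1.33 and Idh3b at -1.18, and without CCC replicate 2 it was 0.08. It was 0.73 without CCC replicate 1 and 0.55 without HHC replicate 1.

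**Figure D2:**
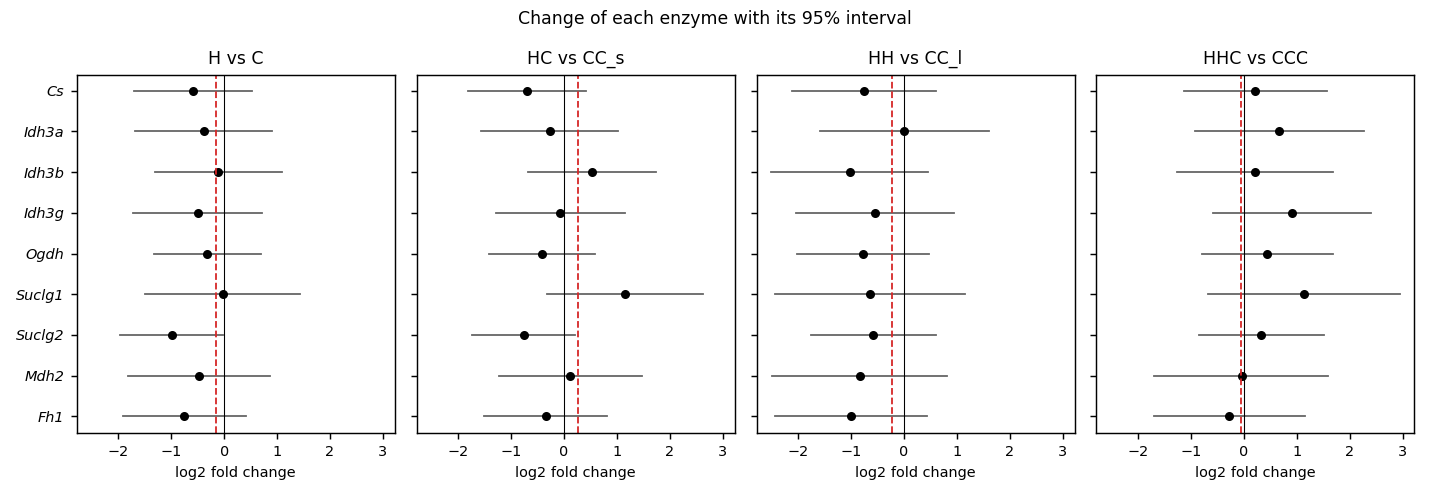
Log2 fold change (x axis) of each enzyme (y axis) in the 4 comparisons, with its 95% interval from the edgeR fit as a line; the red dashed line is the median of all tested genes. Every interval but that of Suclg2 in H vs C (-1.96 to -0.02) includes zero, and the intervals reach from -2.51 to 2.95.

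Whether the effect of HFD differed from that after weight loss was tested as a difference of the 2 effects. In the long arm all 9 differences were negative, from -0.66 for Idh3a (SE 1.07) to -1.78 for Suclg1 (SE 1.21), with a median of -0.98 against -0.01 over all genes. None was called at an adjusted p under 0.05, the lowest being 0.498 by edgeR, where 0.815% of all genes were. No enzyme had an unadjusted p under 0.05 in any of the 3 such contrasts, against 15.5% of all genes in this one, 11.8% in the short arm and 5.79% for the effects of 25 and 12 weeks of HFD, and DESeq2 called 0 of the 9. In the short arm the differences ran from -1.18 for Suclg1 to 0.11 for Cs (median -0.40, lowest adjusted p 0.713, 0% of all genes called). The effects of 25 and 12 weeks of HFD differed by a median of -0.24, from -0.91 for Idh3b to 0.41 for Suclg2 (lowest adjusted p 0.904, 0% of all genes called). The arms carry different codes in the labels' descriptions, and H mice were 18 weeks old while HH mice were 31 weeks old. Duration, age and what the code stands for thus cannot be told apart in this last contrast. Over all genes, 2538 and 1242 passed an unadjusted p under 0.05 in the 2 contrasts with 0% called, and DESeq2 called 400 and 39 there.

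The mean over the 9 enzymes, each centred on its own mean, gives 1 value per mouse. It was -0.70, -0.55 and 0.85 log2 units in C, -0.38, -0.57 and -0.27 in H, 0.06, 0.32 and 0.42 in CC_s and 0.90, 0.22 and -1.55 in HC. In the long arm it was 0.26 and 0.67 in CC_l, -0.40 and -0.04 in HH, 0.40 and -0.28 in CCC and -0.30 and 0.96 in HHC. All 5 HFD mice were below zero, and all 5 mice of the CC_s and CC_l groups above it. C, HC, CCC and HHC each had mice on both sides. Of the variance of this mean, 20.9% lay between the 8 groups, a share that was not tested and does not by itself show a group effect.

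The enzymes followed the adipocyte markers from mouse to mouse. Over the 20 mice the mean correlated with the log2 marker sum at a Pearson r of 0.77 (Spearman 0.79), at 0.74 without the 2 mice farthest from the median marker sum, at 0.86 in the short arm (12 mice) and 0.76 in the long arm (8 mice). With group means removed it was 0.85. Both quantities come from the same libraries and share their scaling, so r is a description. By enzyme, r with the adipocyte markers was highest for Cs and Ogdh (0.89 each), then Idh3a (0.81), Suclg2 (0.78) and Idh3g (0.76), and lowest for Idh3b (0.46) and Suclg1 (0.27). With nuclear-retained RNA the mean over the enzymes had an r of -0.56 (Spearman -0.48), -0.66 in the short arm and -0.32 in the long arm. With group means removed it was -0.84. Adipocyte markers and nuclear-retained RNA had an r of -0.59 with each other, and of -0.82 with group means removed. Which of them the enzymes followed was not tested. The median log2 fold changes of the 8 adipocyte markers themselves were -0.49 in H, -0.48 in HC, -0.71 in HH and 0.34 in HHC, beside -0.47, -0.27, -0.76 and 0.33 for the enzymes. Against the median, 1 of the 8 markers was called higher in H, where 6.49% of all genes were called. None of the 8 was called lower in any comparison. The summed CPM of the 9 enzymes was 2.42% to 3.00% of the adipocyte marker sum in H and 2.50% to 4.70% in C. It was 2.77% to 4.26% in HC and 1.60% to 2.89% in CC_s, 3.91% to 4.34% in HH and 3.96% to 5.11% in CC_l, and 2.74% to 4.01% in HHC and 3.61% to 7.04% in CCC. The ranges of each pair overlapped.

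**Figure D3:**
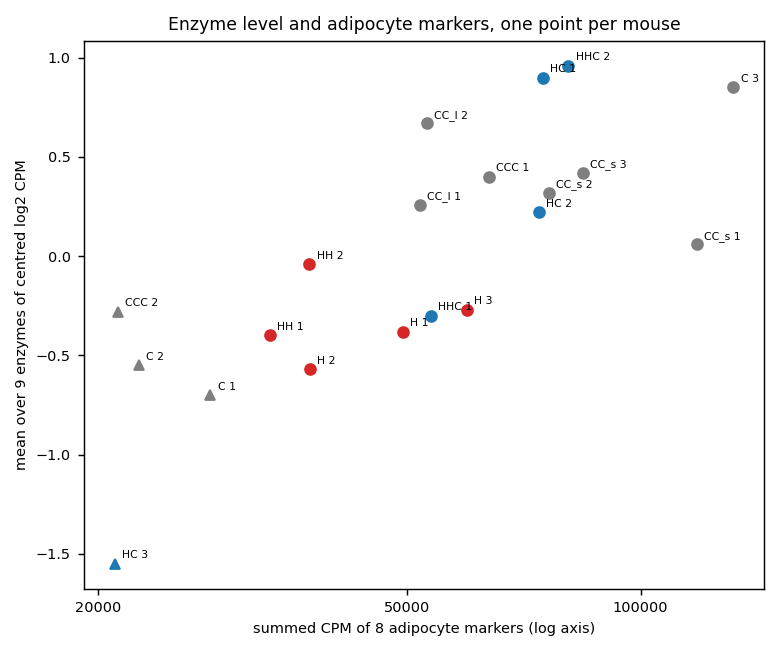
Mean over the 9 enzymes of centred log2 CPM (y axis) against the summed CPM of 8 adipocyte markers (x axis, log scale), 1 labelled point per mouse, with chow in grey, HFD in red, weight loss in blue and triangles for the 4 libraries with over 20000 CPM of nuclear-retained RNA. The enzyme mean rises with the marker sum (r = 0.77), from HC replicate 3 at -1.55 to HHC replicate 2 at 0.96.

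The enzymes did not all vary as a block. Over the 36 pairs, r across the 20 mice ran from 0.20 to 0.93 with a median of 0.77. Cs, Ogdh and Suclg2 went together, with r of 0.92 for Cs and Ogdh, 0.88 for Cs and Suclg2 and 0.87 for Ogdh and Suclg2. Idh3a and Idh3g, the catalytic subunit and a partner in the same enzyme, had the highest r of all pairs, 0.93. Their partner Idh3b went more closely with Mdh2 (0.91) and Suclg1 (0.87) than with Idh3a (0.72). Suclg1 had the 3 lowest values, with Cs (0.28), Ogdh (0.24) and Suclg2 (0.20). In the 16 mice without the 4 libraries that stood apart, r of Suclg1 with Cs, Ogdh and Suclg2 was -0.03, -0.02 and -0.02, while that of Cs with Ogdh was 0.92. With group means removed the contrast was weaker: r of Suclg1 was 0.44 with Cs, 0.44 with Ogdh and 0.52 with Suclg2, and Idh3b went as closely with Idh3a (0.90) as with Suclg1 (0.89). These pairs share libraries and scaling and are given without a test.

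**Figure D4:**
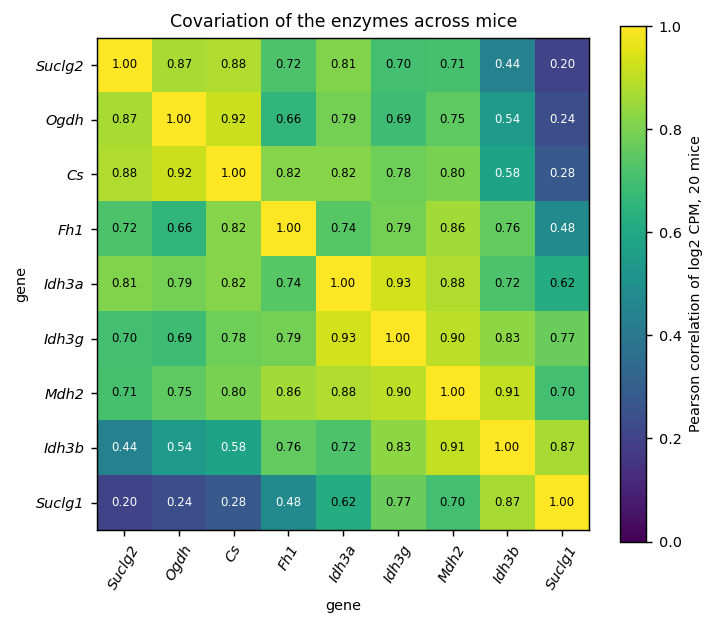
Pearson correlation of log2 CPM over the 20 mice for each pair of enzymes, from dark (0) to bright (1), with the value in each cell. Suclg2, Ogdh and Cs form a block of 0.87 to 0.92 at the upper left, and Suclg1 in the last row falls from 0.87 with Idh3b to 0.20 with Suclg2.

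The balance of the succinyl-CoA ligase subunits Suclg2 and Suclg1 differed between mice. Sucla2, the other beta subunit, does not enter this difference. The log2 CPM of Suclg2 minus that of Suclg1 was 0.43, -0.20 and 0.40 in CC_s and -2.10, -1.19 and -0.82 in HC. It was -1.46, -1.16 and -0.07 in C and -1.87, -2.31 and -0.86 in H. In the long arm it was -2.34 and -2.25 in CC_l and -1.95 and -2.41 in HH. The HHC mice were farthest apart of any group, at 0.65 and -2.64, beside -1.20 and -0.53 in CCC. The group mean was 0.21 in CC_s (SD 0.36, n = 3) and negative in the 7 others. Within the isocitrate dehydrogenase, Idh3a minus Idh3b was lowest in CC_l (mean -0.07, SD 0.06, n = 2) and highest in CC_s (1.58, SD 0.40, n = 3), whereas Idh3a minus Idh3g stayed between -0.06 and 0.99 in all mice. Suclg2 shares 16% of its 50-base words with the annotated gene Gm15163, which had at most 2.27 CPM, and Cs shares 2.01% with Csl. Idh3b overlaps Nop56 on the opposite strand by 5 exon bases. How reads that match several genes were treated is not given in the sources used here.

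The estimates of 8 further subunits of the cycle leaned the same way as those of the 9. This list, which holds among others Dlst and Dld of the alpha-ketoglutarate dehydrogenase complex, the ATP-forming ligase subunit Sucla2 and the succinate dehydrogenase subunits, had medians of -0.70 in H, -0.52 in HC, -0.71 in HH and 0.52 in HHC on the log2 fold change scale. Below zero were 7 of 8 in H, 7 in HC and 8 in HH, and above it 8 of 8 in HHC. None was called in any of the 4, Sdha in H being the 1 with an unadjusted p under 0.05, and the lowest adjusted p in each was 0.281, 0.585, 0.350 and 0.610 by edgeR. Sdha, the flavoprotein subunit, was at -1.23 in H (SE 0.57), and Sdhb, the iron–sulfur subunit, at 1.37 in HHC (SE 0.94). Across the 20 mice Sdha and Sucla2 each had an r of 0.87 with the mean of the 9 enzymes, and Sdhb and Dld of 0.81. Dlst had the lowest of the list, 0.59.

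Of 22 genes that feed the cycle or control that entry, 2 were called in H, where 6.49% of all genes were, and 1 in HHC, where 3.12% were. Pdk1 and Pdp2 act on pyruvate dehydrogenase in opposite ways, the kinase switching it off and the phosphatase on, and both were lower in H. Pdp2 was at 23.1 to 53.3 CPM in C and 8.92 to 13.5 in H (-1.48, SE 0.42, adjusted p = 0.0739 by edgeR), and Pdk1 at 40.5 to 126 and 19.0 to 28.7 (-1.49, SE 0.51, adjusted p = 0.142). Pdk4, another such kinase, was at 14.2 and 14.1 CPM in CCC and at 300 and 56.8 in HHC (3.66, SE 0.56, adjusted p = 0.0974). It was also higher in every mouse of the HFD or weight-loss group in the other 3 comparisons, at 0.76 in H, 1.12 in HC and 1.26 in HH, without passing. Of 10 regulators of mitochondrial gene expression, 2 were called in H (6.49% of all genes), both lower, the coactivators Ppargc1a and Ppargc1b. Ppargc1a was at 18.4, 21.9 and 11.5 CPM in C and at 5.40, 3.21 and 3.26 in H (-2.12, SE 0.47, adjusted p = 0.0264 by edgeR). Ppargc1b was at 38, 42.8 and 17.8 in C and at 7.19, 5.08 and 8.83 in H (-2.23, SE 0.59, adjusted p = 0.0581 by edgeR). For both, the higher C values were those of replicates 1 and 2, which were high in nuclear-retained RNA. The other libraries of that kind, HC replicate 3 and CCC replicate 2, were also the highest of their groups for both genes. The part of these libraries in the H result was not tested. Pprc1, a relative of the 2 coactivators, was the 1 of 10 called in HHC (3.12% of all genes), where it was lower (-1.53, SE 0.45, adjusted p = 0.276 by edgeR). None of the 6 carriers of cycle intermediates was called, and 0 had an unadjusted p under 0.05 in edgeR. Of 5 isoenzymes outside the cycle 1 was called in HH (6.79% of all genes), Csl, a Cs-like gene, which was lower (-6.23, SE 1.46, adjusted p = 0.0365), but its CC_l level was 33.3 and 1.70 CPM, the first in replicate 1, the library with 3330 CPM of spermatid markers.

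Among the 10 genes outside the set whose level was most like the mean of the 9 enzymes over the 20 mice, with r from 0.950 to 0.973, were Acad8, Uqcrc2, Coq9, Cbr4, Pex13, Atp5c1, Mtch2, Gcdh and Fbxo9. Acad8 (0.973) acts in valine breakdown, Uqcrc2 (0.972) is a subunit of the respiratory chain, Coq9 (0.968) is needed to make ubiquinone, Atp5c1 (0.957) belongs to ATP synthase and Gcdh (0.952) acts in lysine breakdown.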

How the data were processed

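Per the labels and the study's methods, ribosome-bound RNA was made into full-length cDNA, tagmented and sequenced in pairs. The submitters' processing notes name FastQC 0.11.9, Trim Galore 0.6.6, HISAT2 2.2.1 (mm10) and Subread 2.0.1, whose featureCounts the authors used to make the deposited counts, raw and per gene. The annotation and the handling of strand and pairs are not given in the sources used here. Between 74.4% and 89.2% of counts above 0 were even, so halved counts were run as an alternative.

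Symbols came from GENCODE vM21 (45229 of 46078 identifiers). Counts were fitted in edgeR 4.0.16 (R 4.3.3; TMM, filterByExpr, quasi-likelihood) over all 20 libraries in 8 groups without covariates, and p-values were adjusted by Benjamini-Hochberg over 21464 genes. A gene was called at a nominal p under 0.01 with a log2 fold change of at least 1 in size, and a difference of effects at an adjusted p under 0.05. Levels are TMM log2 CPM with a prior count of 2. All tests are two-sided. The biological coefficient of variation was 0.68. Labels name the replicates biological replicates. Alternatives were RLE scaling, DESeq2 1.42.0, no filter, the compared groups alone, a replicate block, halved counts and each mouse left out; 3 more were added after seeing the data. The fit was tested on simulated data. The 9 enzymes are all described; other lists are given by counts, with called genes named, and some of their genes are not reported here. The enzymes and lists were chosen with earlier results of these data known.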

Additional observations from a re-analysis of the deposited data

How the results depend on the processing

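Whether the replicate numbers pair the mice could not be settled. Correlations of same-numbered mice were -0.17 to 0.19 for C and H and -0.28 to 0.06 for CC_s and HC. Those of differently numbered mice were -0.27 to 0.21 and -0.12 to 0.27, and groups of 3 mice are small for such a check. Same-numbered mice were at -0.19 for CC_l and HH and -0.26 for CCC and HHC. With 2 mice per group the differently numbered ones had the same values with the sign turned, 0.19 and 0.26, so these cannot decide. Of 486 values for single enzymes under the alternatives, 433 kept their direction and side of the threshold, 43 turned direction and 10 passed the threshold. Part of the last number comes from H in a fit with a single C mouse, whose spread is assumed. The cause of these changes was not tested.

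At an adjusted p under 0.05, 455 genes were called in H (1392 at the study's threshold), 0 in HC (374), 445 in HH (1458) and 0 in HHC (669). DESeq2 called 2163, 727, 2309 and 1185, and 400, 1215 and 39 for H minus HC, HH minus HHC (175 in edgeR) and HH minus H. Without the filter the 7 counts were 2492, 1764, 2879, 1266, 1403, 1266 and 207, with 1 enzyme, Suclg1 in HC (1.20, adjusted p = 0.158 by edgeR). In the compared groups alone they were 243 in HC, 218 in HHC and 0 for HH minus HHC. RLE scaling gave 21 and halved counts 109 for the last. With the compared groups alone, 4 enzymes had an unadjusted p under 0.05 by edgeR in HH, where 1894 genes were called. Their lowest adjusted p was 0.111 by edgeR, 0 enzymes were called, and none had such an unadjusted p in H, HC or HHC. Mdh2 in HHC (-0.04) became 0.08 under RLE scaling and DESeq2, 0.01 without the filter, 0.07 in the groups alone and 0.09 with halved counts, where Idh3a in HH became -0.02. Higher and lower calls in H were 766 and 626, but 651 and 748 with RLE scaling and 928 and 1235 in DESeq2. In HHC they were 96 and 573, but 156 and 421 with RLE scaling and 350 and 835 in DESeq2.

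With the replicate block 204 genes were called in HC, 375 in HHC and 1 for HH minus HHC, Idh3b in HHC became -0.03 and 0 enzymes were called. With numbers crossed in the long arm there were 435 in HHC and 0 for HH minus HHC, and Idh3a in HH was -0.07.

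Leaving out each mouse in turn gave 757 to 1816 genes in H, 160 to 597 in HC, 569 to 1306 in HH, 138 to 1194 in HHC and 0 to 395 for HH minus HHC, with 0 enzymes called throughout. In H the enzymes' median ran from -0.71 to 0.35, with Cs from -0.95 to 0.44, Idh3a -0.63 to 0.35, Idh3b -0.31 to 0.46, Idh3g -0.71 to 0.10, Ogdh -0.58 to 0.48, Suclg1 -0.19 to 0.12, Suclg2 -1.27 to -0.32, Mdh2 -0.78 to 0.53 and Fh1 -1.03 to -0.03. In HC the median ran from -0.79 to 0.20, with Suclg1 from 0.02 to 1.61 and Suclg2 from -1.27 to -0.41, and Idh3a ran from -1.08 to 0.20, Idh3b -0.15 to 0.96, Idh3g -0.79 to 0.40, Mdh2 -0.58 to 0.58 and Fh1 -0.79 to 0.11. In HH the median ran from -0.86 to -0.54, Idh3a from -0.17 to 0.25, Idh3g from -0.85 to -0.28, Suclg1 from -1.07 to -0.28, Suclg2 from -0.81 to -0.25 and Fh1 from -1.27 to -0.61. In HHC the median ran from -0.14 to 0.73, and Cs ran from -0.06 to 0.56, Idh3a -0.12 to 1.57, Idh3b -1.18 to 0.90, Idh3g -0.14 to 1.5, Suclg1 -1.33 to 2.00, Mdh2 -1.09 to 0.55 and Fh1 -0.85 to 0.20.

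The next 2 settings were chosen after seeing the data. Without the 4 libraries high in nuclear-retained RNA, 239 genes were called in HC, 2472 in HH, 220 in HHC and 12 for HH minus HHC, and 4 enzymes in H. Idh3a, Idh3g and Fh1 in HC became 0.13, 0.33 and 0.05, Idh3a in HH -0.01 and Fh1 in HHC 0.28. With that RNA as a covariate 2713 genes were called in H, 3215 in HH and 831 for HH minus HHC, with 4 enzymes in H (median -1.33) and 1 in HH. Mdh2 in HC became -0.23, Idh3a in HH -0.53, and Cs, Idh3a, Idh3b and Suclg2 in HHC -0.24, -0.02, -0.73 and -0.03. The enzymes had at least 354 counts in every library.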
